A study of Mus musculus with 3 samples.

Results

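TRBV31, formerly named Vβ14, is a variable gene of the mouse T cell receptor (TCR) β chain. Its members here were all TCRβ clonotypes whose best matching V gene was TRBV31 and whose best matching J gene was a TRBJ gene, whatever their D gene or reading frame. A clonotype is a group of reads with the same nucleotide sequence of the CDR3, the loop that spans the joined V, D and J segments. There were 4017 TRBV31 clonotypes of 44807 TCRβ clonotypes in CD4 T cells, 9391 of 81212 in CD8 T cells and 3250 of 41948 in double negative (DN) T cells. With clonotypes of more than 1 library counted once, these were 15458 of 154480. The cells were CD4, CD8 and DN T cells of the spleen, sorted by flow cytometry from 1 MRL.lpr mouse aged 16 weeks. MRL.lpr is a lupus-prone strain whose lpr mutation disrupts Fas, a receptor that triggers cell death, and all 3 subsets carried it. Each subset gave the mRNA of 1000000 cells and 1 library, so differences between subsets have no replicate check and were not tested. The files held no CD4 or CD8 transcripts, and the labelled subsets could not be checked against marker genes.

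A TCRβ gene is assembled in the thymus, where a D segment joins a J segment and a V segment then joins the DJ product. Most V genes lie upstream of the D and J segments in the same orientation and join by deletion of the DNA between. TRBV31 lies at the other end of the locus, after the second constant gene, in the opposite orientation, and it joins by inversion, which keeps the DNA between on the chromosome. The mouse RefSeq gene list placed the segments in the order Trbd1, the Trbj1 genes, Trbc1, Trbd2, the Trbj2 genes, Trbc2 and Trbv31. By this order TRBD1 can reach either J cluster by deletion, whereas TRBD2 can reach TRBJ2 only. Enzymes trim the segment ends and add bases at the junctions, so that many joins shift the reading frame and cannot encode a β chain.

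The most common start of the in-frame TRBV31 CDR3s, tgtgcctggagtcta, was taken as the V part, since no genome sequence was at hand. It encodes the conserved cysteine, alanine, tryptophan and serine, followed by leucine. The most common end of the CDR3s of each J gene was taken as the J part in the same way. The sequences below are the 3 TRBV31 clonotypes with the most reads in each library, the other 2 that were among the 100 largest clonotypes of more than 1 library, and 3 further nonproductive clonotypes chosen after their counts were seen. Lower case marks bases that matched the V or J part. Capitals mark the bases between them, which hold D bases, added bases and any V or J bases beyond those parts.
Clonotype 1, TRBJ2-1, largest in DN and second in CD8: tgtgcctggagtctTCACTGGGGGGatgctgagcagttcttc
Clonotype 2, TRBJ2-7, second in DN: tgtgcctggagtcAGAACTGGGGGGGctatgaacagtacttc
Clonotype 3, TRBJ2-7, 3rd in DN: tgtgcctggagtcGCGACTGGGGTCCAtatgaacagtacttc
Clonotype 4, TRBJ1-3, among the 100 largest of DN and CD8: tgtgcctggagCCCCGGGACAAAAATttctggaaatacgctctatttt
Clonotype 5, TRBJ2-1, among the 100 largest of DN and CD8: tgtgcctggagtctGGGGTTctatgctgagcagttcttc
Clonotype 6, TRBJ2-5, largest in CD4: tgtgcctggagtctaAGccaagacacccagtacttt
Clonotype 7, TRBJ2-4, second in CD4: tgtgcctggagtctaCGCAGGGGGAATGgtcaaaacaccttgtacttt
Clonotype 8, TRBJ1-2, nonproductive, 3rd in CD4: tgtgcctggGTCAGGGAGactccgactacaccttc
Clonotype 9, TRBJ2-1, nonproductive, largest in CD8: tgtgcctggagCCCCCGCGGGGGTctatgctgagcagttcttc
Clonotype 10, TRBJ1-1, 3rd in CD8: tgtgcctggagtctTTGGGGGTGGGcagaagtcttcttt
Clonotype 11, TRBJ2-7, nonproductive, CD4: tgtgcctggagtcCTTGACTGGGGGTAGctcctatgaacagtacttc
Clonotype 12, TRBJ1-4, nonproductive, DN: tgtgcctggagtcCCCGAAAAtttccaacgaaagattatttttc
Clonotype 13, TRBJ1-1, nonproductive, DN: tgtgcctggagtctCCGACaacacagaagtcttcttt

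The libraries held 133667, 150874 and 194290 TCRβ reads (CD4, CD8 and DN), of which TRBV31 had 12860, 17387 and 18194. The libraries also shared clonotypes, so V gene shares, reading frames, J and D use, CDR3 lengths, junctions and single-read shares were computed again on clonotypes found in no other library, and values are given where a call or a size changed or where the result is a main one. Shares have 95% Wilson intervals, which cover counting error only, because no molecular identifiers were stated and PCR reads are not independent molecules. A count of 0 allowed a share of reads of up to 0.00224%, 0.00199% and 0.00154%. V genes were compared where they had at least 100 in-frame clonotypes in every library, which left 16. Within each library, each of these genes was set against all other V genes in Fisher's exact test (two-sided, counting clonotypes), with Benjamini-Hochberg adjustment over 384 tests, and a difference was called where the adjusted p was below 0.05. These tests take each clonotype as independent and compare genes within 1 library of 1 mouse.

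TRBV31 was one of the more used V genes in all 3 libraries, and its share was highest in CD8 T cells. It made up 8.97% of TCRβ clonotypes for CD4 (interval 8.70 to 9.23), 11.6% for CD8 (11.3 to 11.8) and 7.75% for DN T cells (7.50 to 8.01). It was therefore the 5th most used V gene for CD4, the 2nd for CD8 and the 6th for DN T cells. Its neighbours in the CD4 order were TRBV20 with 9.31% (9.04 to 9.58) and TRBV4 with 8.35% (8.10 to 8.61), and its interval overlapped that of TRBV20. In CD8 T cells TRBV13-3 stood above it with 14.5%, and TRBV1 just below it with 11.3% (11.1 to 11.5) had an overlapping interval. In DN T cells it lay between TRBV17 with 8.93% and TRBV19 with 7.27%, where only the TRBV19 interval (7.03 to 7.53) touched its own. The V genes at the top of the order were TRBV13-2 for CD4, TRBV13-3 for CD8 and TRBV13-1 for DN T cells.

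**Figure D1:**
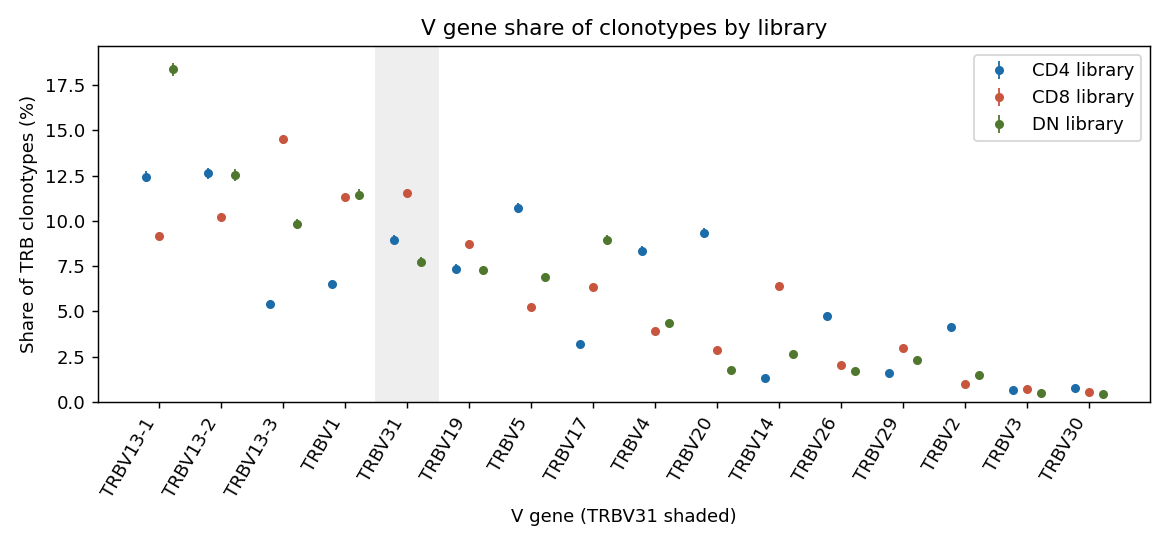
Share of TCRβ clonotypes (y axis, percent) for each of the 16 compared V genes (x axis) in the CD4, CD8 and DN libraries, with 95% Wilson intervals as bars where they exceed the points. TRBV31, shaded, stood at 11.6% in CD8, 8.97% in CD4 and 7.75% in DN T cells.

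As a ratio of clonotype shares, DN over CD8 T cells gave 0.670 for TRBV31 (95% interval 0.645 to 0.696), DN over CD4 gave 0.864 (0.827 to 0.903) and CD4 over CD8 gave 0.775 (0.749 to 0.803). A share over 25% higher in one library than in the other was found for 62.5% of the V genes between DN and CD8, 81.2% between DN and CD4 and 81.2% between CD4 and CD8 T cells. On clonotypes found in no other library, TRBV31 had 11.9% in CD8 T cells, and the DN to CD8 and CD4 to CD8 ratios were 0.636 and 0.745. A shift of over 25% was thus common among the V genes, with TRBV31 itself counted. TRBV31 passed it between DN and CD8 and between CD4 and CD8, and its DN to CD4 ratio stayed below that size. By fold, only TRBV13-1, TRBV2, TRBV14, TRBV20 and TRBV3 differed at least as much as TRBV31 between DN and CD8. In the order of DN to CD8 ratios, TRBV31 was next to TRBV13-3 (0.678) and TRBV3 (0.664), between TRBV13-1 at the upper end (2.002) and TRBV14 at the lower end (0.411). For the DN to CD4 ratio, the neighbours were TRBV19 (0.989) and TRBV3 (0.763), and the ends were TRBV17 (2.78) and TRBV20 (0.188). For the CD4 to CD8 ratio, the neighbours were TRBV19 (0.842) and TRBV1 (0.576), and the ends were TRBV2 (4.07) and TRBV14 (0.210).

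By reads, TRBV31 made up 9.62% (9.46 to 9.78) of the CD4, 11.5% (11.4 to 11.7) of the CD8 and 9.36% (9.24 to 9.49) of the DN library. The DN share of reads was 0.973 times that of CD4 T cells and 0.813 times that of CD8 T cells. The gap of DN T cells was thus narrower by reads than by clonotypes over all clonotypes. It was not narrower in clonotypes found in no other library, where DN over CD8 was 0.620 by reads and 0.636 by clonotypes, and DN over CD4 was 0.804 and 0.853. TRBV31 had 5.60 reads per clonotype in DN T cells against 4.55 for the other V genes together. In bulk mRNA, more cells of a clone and more TCR mRNA per cell cannot be told apart. V genes were also compared by their log2 ratios of clonotype share for CD4 over CD8 and for DN over CD8. By the distance between these ratios, the nearest to TRBV31 were TRBV3 (distance 0.17), TRBV19 (0.33) and TRBV29 (0.58). The ratios were alike, not the shares themselves, as TRBV3 made up 0.64%, 0.74% and 0.49% of CD4, CD8 and DN clonotypes. This likeness rests on 3 libraries.

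Nonproductive TRBV31 clonotypes, which are out of frame or hold a stop codon, were frequent in each library. They were 652 of 4017 in CD4 T cells (16.2%, interval 15.1 to 17.4), 811 of 9391 in CD8 T cells (8.64%, 8.08 to 9.22) and 577 of 3250 in DN T cells (17.8%, 16.5 to 19.1). The other V genes together had 6.997%, 4.40% and 8.23%. The TRBV31 share was therefore 2.32, 1.962 and 2.16 times theirs in CD4, CD8 and DN T cells. The in-frame share of TRBV31 minus that of the other V genes was -9.23, -4.23 and -9.53 percentage points, with adjusted p-values of 2.06e-75, 2.13e-59 and 1.73e-59 by Fisher's exact test. A call on this measure was not rare by itself, as 77.1% of the 48 pairs of V gene and library were called in either direction.

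TRBV31 was nevertheless at or near the end of the order each time. In CD4 T cells it had the largest nonproductive share of the 16 genes, ahead of TRBV14 with 12.3%, whose upper bound (15.13) lay just above the lower bound of TRBV31 (15.12). In CD8 T cells TRBV4 was above it with 11.4% and TRBV30 just below with 8.08%, and the intervals of TRBV30 and TRBV31 overlapped. In DN T cells TRBV4 led with 22.4%, followed by TRBV3 with 21.95% (16.8 to 28.1), TRBV31 with 17.8% and TRBV2 with 13.2% (10.8 to 16.0117), and the interval of TRBV3 overlapped that of TRBV31. The other end of the order was TRBV20 in both CD4 (2.97%) and CD8 T cells (2.17%), and TRBV29 in DN T cells (3.27%). Among clonotypes found in no other library, the in-frame share of TRBV31 was again below that of the other V genes, with differences of -9.20, -3.94 and -9.94 percentage points. A sequencing insertion or deletion can turn an in-frame CDR3 into an out-of-frame one. With clonotypes 1 insertion or deletion from a clonotype of 10 times their reads merged into it, an alternative chosen after seeing the data, the nonproductive share of TRBV31 was 15.7%, 8.49% and 16.9%.

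Nonproductive TRBV31 clonotypes also carried many reads. They had 3.04 reads per clonotype for CD4, 1.87 for CD8 and 4.23 for DN T cells, the highest values of the 16 V genes in all 3 libraries. In-frame TRBV31 clonotypes had 3.23, 1.85 and 5.89 reads. A nonproductive TRBV31 clonotype thus had 0.94, 1.01 and 0.72 times the reads of an in-frame one, while the median over the other V genes was 0.51, 0.67 and 0.37 times. TRBV31 ranked first for this ratio in CD4 T cells, though 2nd among clonotypes with at least 2 reads, and second in DN T cells, where TRBV4 had 0.92. In CD8 T cells it was the 3rd, after TRBV2 with 1.07 and TRBV4 with 1.06. In clonotypes found in no other library, an alternative chosen after seeing the data, the ratios were 0.87, 0.83 and 0.93, and TRBV31 ranked 1st, 5th and 4th. Without the 10 largest TRBV31 clonotypes of each kind, also chosen after seeing the data, they were 0.69, 0.81 and 0.58. The removal of the largest clonotypes was not run for the other V genes. All these ratios compare means, and the median was 1 read for both kinds of TRBV31 clonotype in every library. Single reads made up 63.2%, 75.3% and 62.2% of the nonproductive ones, against 58.6%, 65.7% and 54.2% of the in-frame ones. The ratios are descriptions of 1 library each and were not tested.

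TRBV31 took a larger part of the nonproductive reads than of the nonproductive clonotypes. Of all nonproductive clonotypes, 18.6% for CD4, 20.4% for CD8 and 15.3% for DN T cells used TRBV31. Of all nonproductive reads, 28.6%, 26.9% and 26.6% did. Few clonotypes make up the top of each library, and TRBV31 was prominent among the nonproductive ones there. Among the 100 largest clonotypes of each library, 2 nonproductive ones used TRBV31 and 2 used any other V gene, and this held in CD4, CD8 and DN T cells alike. In-frame and nonproductive clonotypes together, TRBV31 had 8 of the 100 largest for CD4, 11 for CD8 and 13 for DN T cells.

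Most of the nonproductive TRBV31 clonotypes were out of frame, 630 for CD4, 774 for CD8 and 554 for DN T cells, and only 22, 37 and 23 were in frame with a stop codon. Their use of TRBJ1 was 32.4%, 31.1% and 35.7%, beside 34.7%, 31.1% and 29.8% of the in-frame ones. Their mean CDR3 length was 41.02, 41.2 and 41.4 bases, beside 41.04, 40.9 and 41.7 bases. Nonproductive and in-frame TRBV31 clonotypes were therefore alike in length to within 0.5 bases on average. Of the printed nonproductive sequences, clonotype 8 had 193 reads in CD4 T cells and clonotype 11 had 181. Clonotype 9 had 167 reads in CD8 T cells, more than any in-frame TRBV31 clonotype there. Clonotype 12 had 261 reads in DN T cells and clonotype 13 had 186.

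**Figure D2:**
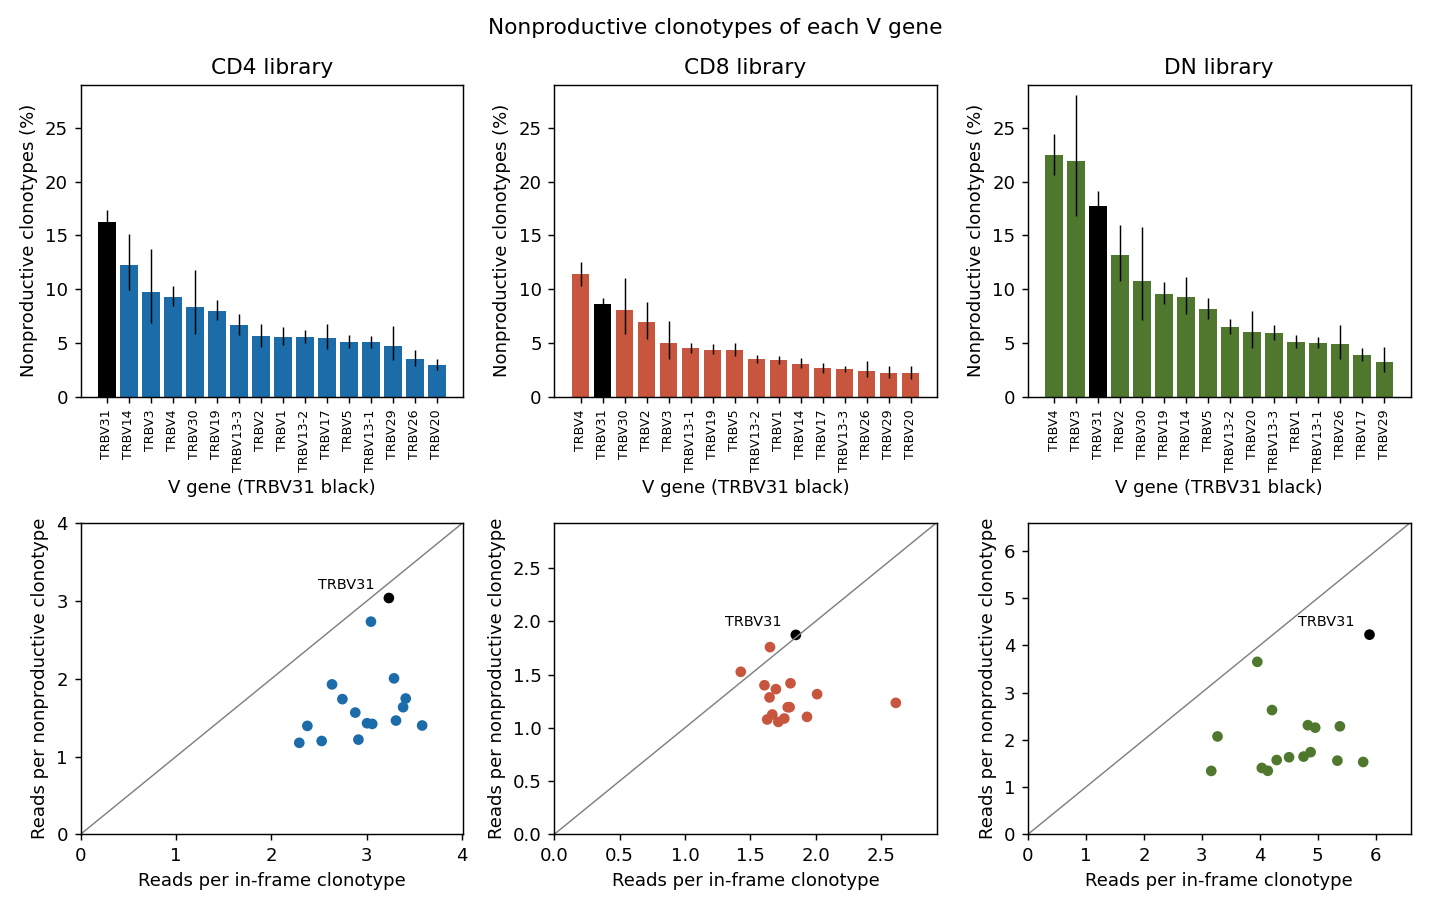
Upper row, share of each V gene's clonotypes that were nonproductive (y axis, percent, 95% Wilson intervals) in each library, with V genes ordered from high to low and TRBV31 in black. Lower row, reads per nonproductive clonotype (y axis) against reads per in-frame clonotype (x axis), 1 point per V gene, with the line of equality. TRBV31 had the highest y value in each lower plot, at 3.04, 1.87 and 4.23 reads.

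TRBV31 lay in the middle of the order for its use of the TRBJ clusters. Of the in-frame TRBV31 clonotypes, 34.7% (33.1 to 36.4) joined TRBJ1 in CD4 T cells, 31.1% (30.1 to 32.1) in CD8 T cells and 29.8% (28.1 to 31.6) in DN T cells. The other V genes together joined TRBJ1 in 36.7%, 30.6% and 29.3%. The difference was called in CD4 T cells, where TRBV31 minus the others was -1.97 percentage points (adjusted p = 0.0346, Fisher's exact test), but its adjusted p was 0.0655 among clonotypes found in no other library and 0.0567 after near-identical clonotypes were merged. In CD8 and DN T cells the adjusted p-values were 0.433 and 0.6004. With 75% of all pairs of V gene and library called, the single call for TRBV31 was fewer than most V genes had. Its neighbours in the order were TRBV1 and TRBV5 in CD4, TRBV26 and TRBV13-3 in CD8, and TRBV13-1 and TRBV5 in DN T cells. TRBV3 was the lowest each time (20.1%, 16.9% and 20%), and the highest were TRBV29 in CD4 (47.5%), TRBV20 in CD8 (40.1%) and TRBV26 in DN T cells (37.8%).

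The single J genes followed the same course. TRBJ2-7 was the J gene most often joined to TRBV31, with 17.1% of in-frame clonotypes for CD4, 18.4% for CD8 and 21.8% for DN T cells, followed by TRBJ2-1 with 13.0%, 14.6% and 16.9% and TRBJ2-5 with 11.7%, 14.2% and 11.97%. TRBJ2-3 had 9.84%, 9.62% and 9.20%, and TRBV31 had the highest TRBJ2-3 share of all 16 V genes in CD8 and DN T cells. The other V genes reached at most 9.11% and 8.96% there, which lay inside the TRBV31 intervals (9.01 to 10.26 and 8.17 to 10.36). TRBJ2-4 had 8.11%, 7.65% and 5.65%, and TRBJ2-2 had 5.47%, 4.42% and 4.56%. In the TRBJ1 cluster, TRBJ1-1 was the most used with 8.86%, 8.24% and 8.87%, then TRBJ1-4 with 7.64%, 6.54% and 6.96%. TRBJ1-3 had 5.74%, 4.91% and 3.74%, and TRBJ1-2 had 5.05%, 5.52% and 3.89%. TRBJ1-6 had 4.07%, 3.37% and 3.97%, and TRBJ1-5 was the least used with 3.39%, 2.52% and 2.39%. Apart from the 2 TRBJ2-3 values, all shares lay within the range of the other V genes in the same library. No TRBV31 clonotype was listed with TRBJ2-6, which is a pseudogene in the RefSeq list.

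**Figure D3:**
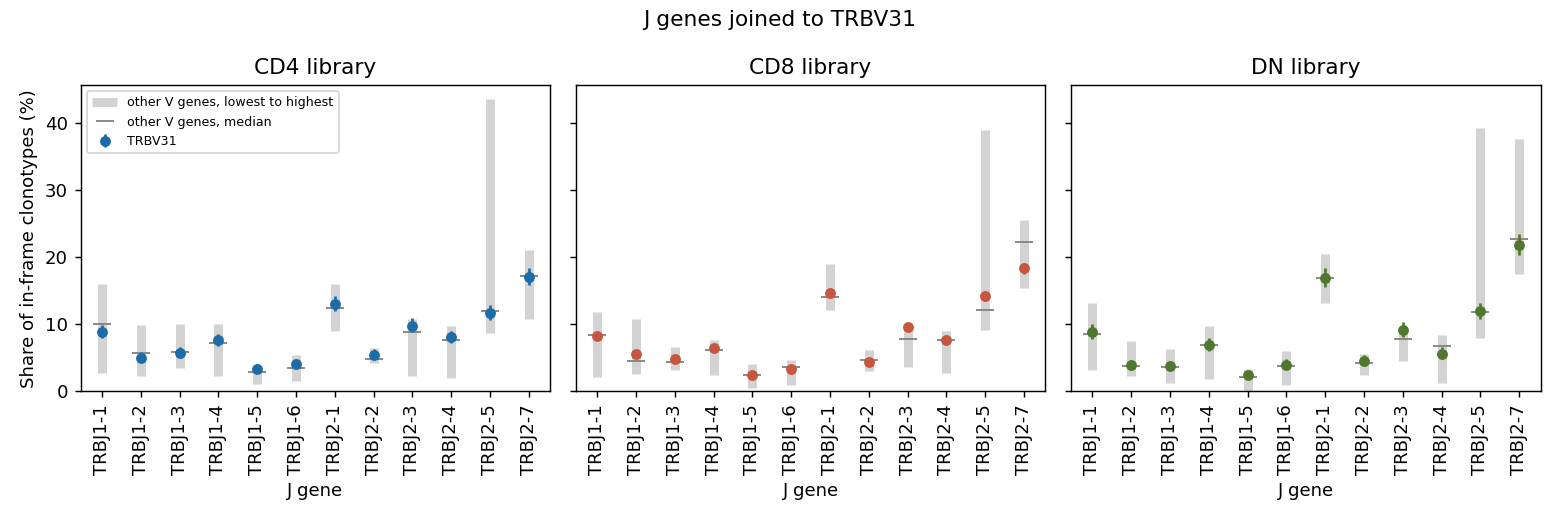
Share of in-frame clonotypes (y axis, percent) that joined each J gene (x axis) for TRBV31 (points with 95% Wilson intervals) in each library, over the lowest to highest share among the other compared V genes (grey bars) and their median (dashes). TRBV31 lay inside the grey bars except for TRBJ2-3 in the CD8 and DN libraries, with 9.62% and 9.20%, where its intervals reached into the bars.

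By reads, 1 clonotype weighed on the J use of TRBV31 in DN T cells. TRBJ2-1 had 25.95% of its in-frame reads there, against 16.9% of clonotypes. Without clonotype 1, whose 1269 reads were 8.05% of the in-frame TRBV31 reads, the TRBJ2-1 share of reads was 19.5%.

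In the D segments, TRBV31 was high for TRBD2. Among in-frame clonotypes with a TRBJ2 gene and a named D gene, 63.0% (60.7 to 65.3) had TRBD2 in CD4 T cells, 68.2% (66.8 to 69.5) in CD8 T cells and 74.5% (72.3 to 76.6) in DN T cells. The other V genes together had 53.8%, 55.2% and 65.5%. The differences of 9.26, 13.0 and 8.95 percentage points had adjusted p-values of 3.84e-13, 4.25e-63 and 8.84e-13 by Fisher's exact test. The call rate over all V genes was 75%, and TRBV31 had the highest share for CD4, the second highest for CD8 and the 3rd highest for DN T cells. Next to it stood TRBV13-2 with 62.1% in CD4, TRBV4 with 74.0% and TRBV5 with 64.5% in CD8, and TRBV13-2 with 74.8% and TRBV5 with 70.5% in DN T cells. The TRBV13-2 intervals overlapped those of TRBV31 in both libraries. The upper end was TRBV4 in CD8 and DN T cells (78.7% in DN), and the lower end was TRBV29 with 32.7%, 31.1% and 37.01%. On clonotypes found in no other library, the TRBV31 differences were 9.90, 13.8 and 8.97 percentage points. The ranks depended on the processing. With at least 2 reads per clonotype TRBV31 was 3rd in CD4 and 5th in DN T cells. By reads it was 2nd in CD4 and 4th in DN T cells, and it was 2nd in CD8 T cells both ways.

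As a share of all in-frame TRBV31-TRBJ2 clonotypes, TRBD2 was named in 50%, 53.2% and 61.9%, TRBD1 in 29.3%, 24.9% and 21.2%, and no D gene in 20.7%, 21.9% and 16.8%. With TRBJ1, TRBD1 was named in 59.6%, 57.0% and 58.0% and no D gene in 33.2%, 37.03% and 34.0%. The D bases are visible in the sequences. Of the distinct in-frame TRBV31-TRBJ2 clonotypes listed with TRBD2, 41.1% held actggggg between the V and J parts, against 3.77% of those listed with TRBD1, and of those listed with TRBD1, 17.9% held ggacaggg, against 0.0202% of those listed with TRBD2. Each run was picked as the most frequent among clonotypes with that D label, and D genes are called from the same bases. The contrast therefore does not check the D calls. Clonotypes 1 and 2 hold the TRBD2 run, while clonotype 6, which has 2 bases between its V and J parts, was listed without a D gene. Among nonproductive TRBV31-TRBJ2 clonotypes, counting those without a named D gene, TRBD2 had 59.0%, 65.7% and 62.8%, beside the 50%, 53.2% and 61.9% of in-frame joins.

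TRBD2 was also listed with TRBJ1, against the gene order, in 7.19% of in-frame TRBV31-TRBJ1 clonotypes for CD4, 5.997% for CD8 and 8.03% for DN T cells. The other V genes had 5.30%, 4.96% and 6.23%. D genes are short and rich in G, and the number of D bases behind each call was not analysed here. Clonotype 10, for example, was listed with TRBD2 and TRBJ1-1.

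No D gene was named for 25.02% of in-frame TRBV31 clonotypes for CD4, 26.6% for CD8 and 21.96% for DN T cells, and the other V genes had 26.6%, 26.2% and 23.4%. The adjusted p-values were 0.0609, 0.497 and 0.117 by Fisher's exact test, while 58.3% of all pairs of V gene and library were called. TRBV31 lay between TRBV13-3 and TRBV30 in CD4, TRBV13-1 and TRBV19 in CD8, and TRBV13-2 and TRBV13-3 in DN T cells. TRBV26 was the highest in each library (37.3%, 39.99% and 36.9%), and TRBV3 in CD4 (16.2%) and TRBV4 in CD8 (16.8%) and DN T cells (13.8%) were the lowest. By reads, DN T cells stood out, with no D gene for 14.5% of in-frame TRBV31 reads against 24.5% for the other V genes. Without clonotype 1 the TRBV31 share was 15.8%.

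CDR3s with TRBV31 were short for a V gene. Their mean length was 13.7 ± 1.55 residues (SD over 3365 in-frame clonotypes) for CD4, 13.6 ± 1.42 (8580) for CD8 and 13.9 ± 1.56 (2673) for DN T cells, against 13.94, 13.95 and 14.24 for the other V genes. The difference in mean was -0.26, -0.33 and -0.33 residues. TRBV31 was the 4th shortest of the 16 V genes for CD4, the 3rd for CD8 and the 5th for DN T cells. In CD4 T cells it lay between TRBV29 (13.3) and TRBV26 (13.7), in CD8 T cells between TRBV20 (12.9) and TRBV29 (13.6), and in DN T cells between TRBV26 (13.9) and TRBV19 (14.03). The shortest were TRBV20 in CD4 (13.2) and TRBV30 in CD8 (12.9) and DN T cells (13.0), and the longest were TRBV3 in CD4 (14.6) and TRBV2 in CD8 (14.8) and DN T cells (14.98). The number of V residues in the CDR3 is fixed by each V gene, so these lengths do not compare the joining process alone.

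Short CDR3s of 11 residues or fewer were 9.33% of in-frame TRBV31 clonotypes for CD4, 7.59% for CD8 and 6.88% for DN T cells, against 4.72%, 5.83% and 4.22% for the other V genes. The adjusted p-values were 2.61e-25, 1.59e-09 and 5.18e-09 by Fisher's exact test, and 72.9% of all pairs were called. With at least 2 reads per clonotype, the CD8 difference was 0.70 percentage points with an adjusted p of 0.234. The genes next to TRBV31 were TRBV29 and TRBV20 in CD4 and TRBV29 and TRBV13-2 in CD8, and TRBV29 and TRBV26 in DN T cells. TRBV29 was the highest in CD4 (12.2%) and TRBV30 in CD8 (17.6%) and DN T cells (10.9%), and the lowest were TRBV5 (1.38%), TRBV2 (1.56%) and TRBV1 (1.2503%).

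Long CDR3s of 17 residues or more were correspondingly few, with 2.08%, 1.21% and 3.14% of in-frame TRBV31 clonotypes against 2.91%, 3.40% and 4.90%. The adjusted p-values were 0.00837, 2.36e-33 and 4.43e-05 by Fisher's exact test, with 85.4% of all pairs called. Among clonotypes with at least 2 reads, the CD4 difference was -0.037 percentage points, with an adjusted p of 1. TRBV31 stood between TRBV19 and TRBV13-3 in CD4, TRBV4 and TRBV20 in CD8, and TRBV14 and TRBV19 in DN T cells. TRBV2 had the largest share in all 3 libraries (6.33%, 10.5% and 12.6%), and the smallest were in TRBV20 in CD4 (0.42%), TRBV30 in CD8 (0.25%) and TRBV20 in DN T cells (0.73%).

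**Figure D4:**
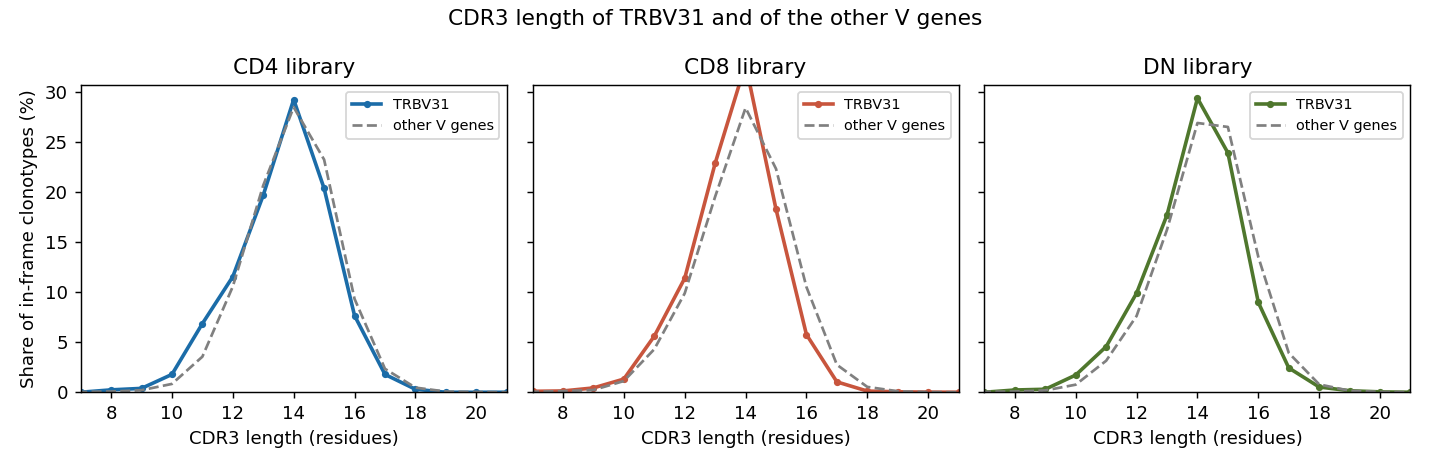
Share of in-frame clonotypes (y axis, percent) at each CDR3 length in residues (x axis) for TRBV31 (solid line) and the other V genes (dashed line) in each library. Both peaked at 14 residues, where TRBV31 had 29.3%, 32.8% and 29.4% (CD4, CD8 and DN), and TRBV31 was lower at 15 and 16 residues.

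The V end of TRBV31 was usually trimmed by a few bases. In-frame clonotypes kept on average 12.4 ± 2.45 bases of the V part for CD4, 12.6 ± 2.19 for CD8 and 12.5 ± 2.38 for DN T cells (SD over clonotypes), and 22.4%, 23.7% and 23.9% kept all 15. The V part itself ends without a sharp border. Among sequences matching so far, the most common base had 64.2% at position 14, 60.5% at position 15 and 59.5% at position 16, and the part was ended where the share fell below 60%. Between the V and J parts lay 10.7 ± 4.52, 10.3 ± 4.205 and 11.4 ± 4.52 bases. The number was larger with TRBJ2 (11.3, 10.9 and 12.1) than with TRBJ1 (9.69, 8.94 and 9.95) in each library. The J parts were shorter than the RefSeq genes by 27 to 28 bases for TRBJ1 and 27 to 30 for the used TRBJ2 genes. Some J bases, mainly of TRBJ2-1, TRBJ2-2 and TRBJ2-5, can thus be counted as bases between, which adds to the TRBJ2 values. Nonproductive clonotypes had 11.7, 11.5 and 11.8 bases between. In-frame clonotypes found in no other library had 10.90 bases between in CD4 and 11.75 in DN T cells, the latter near the nonproductive value. They kept 12.31 and 12.35 bases of the V part. These values are descriptions within each library.

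The first residues of TRBV31 CDR3s were mostly those of the V part. Position 3, counted from the conserved cysteine at position 1, was tryptophan in 95.6% of in-frame clonotypes for CD4, 97.9% for CD8 and 96.7% for DN T cells. Position 4 was serine in 78.3%, 82.4% and 79.0%, and arginine in 9.63%, 6.50% and 8.60%. At position 5, leucine had 41.6%, 43.5% and 43.4%, proline 17.6%, 17.7% and 17.8%, and arginine 14.2%, 9.79% and 10.4%. A tryptophan followed by glycine from position 5 on, which one reading frame of TRBD2 encodes, was chosen for a look after the largest DN clonotypes were seen. It occurred in 25.2% of in-frame TRBV31 clonotypes with TRBD2 and TRBJ2 in CD4 T cells, and the shares for CD8 and DN T cells were 32.8% and 48.9%. The other V genes had 30.3%, 33.7% and 50.3%, so the higher DN value was shared by them. A cysteine from position 5 on was rare, with 2 of 3365, 9 of 8580 and 6 of 2673 in-frame TRBV31 clonotypes. More than 1 nucleotide sequence encoded 6.23%, 10.4% and 4.83% of the TRBV31 amino acid sequences, beside 7.88%, 10.9% and 7.39% for the other V genes.

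The reads of TRBV31 were spread over fewer clonotypes in DN T cells than in the other libraries, which held more TRBV31 clonotypes. Its 10 largest clonotypes held 11.8% of its reads in CD4 (11.3 to 12.4), 5.81% in CD8 (5.48 to 6.17) and 21.97% in DN T cells (21.4 to 22.6). The most abundant 283 clonotypes made up 50% of its reads for CD4, 1920 for CD8 and 76 for DN T cells. At least 100 reads were found for 8, 4 and 25 TRBV31 clonotypes. The other V genes together had the same order of libraries. Their most abundant 2888, 13583 and 1220 clonotypes made up 50% of their reads, and 77, 31 and 190 had at least 100 reads. The direction of the concentration in DN T cells was thus not particular to TRBV31. The 10 largest clonotypes of the other V genes held 4.71%, 4.70% and 5.54% of their reads. These 10 come from a larger pool of clonotypes, and the size of the rise was not compared gene by gene. Single reads made up 58.6%, 65.7% and 54.2% of the in-frame TRBV31 clonotypes, beside 61.1%, 68.5% and 55.1% for the other V genes. The difference was called in CD4 (adjusted p = 0.00837) and CD8 T cells (5.43e-07) but not in DN T cells (0.426) by Fisher's exact test, with 45.8% of all pairs called. TRBV31 had the lowest single-read share in CD4 T cells, next to TRBV13-1 with 59.0%, and the second lowest in CD8 T cells, between TRBV13-3 (65.8%) and TRBV13-1 (65.0%). In DN T cells it lay between TRBV13-2 (54.4%) and TRBV13-1 (53.8%). The highest values were those of TRBV3 in CD4 (67.6%) and TRBV2 in CD8 (78.4%) and DN T cells (61.9%), and TRBV13-3 was the lowest in DN T cells (51.1%).

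Of the 15458 distinct TRBV31 clonotypes, 3468 were found in CD4 only, 8510 in CD8 only and 2449 in DN only. A further 482 were shared by CD8 and DN, 230 by CD4 and CD8, 150 by CD4 and DN, and 169 by all 3 libraries. The 169 shared by all held 52.5% of the TRBV31 reads in DN T cells but 10.3% in CD4 and 10.8% in CD8 T cells. Clonotypes found in any other library held 33.4% (CD4), 20.5% (CD8) and 76.6% (DN) of in-frame TRBV31 reads. For the other V genes these shares of reads were 34.4%, 29.1% and 70.7%. Of in-frame TRBV31 clonotypes, 14.3% for CD4, 9.32% for CD8 and 26.3% for DN T cells were found in another library, against 13.3%, 12.5% and 23.9% for the other V genes. The difference was called in CD8 T cells, where TRBV31 minus the others was -3.22 percentage points (adjusted p = 5.58e-18), and in DN T cells, where it was 2.42 (0.00899), but not in CD4 T cells (0.126), by Fisher's exact test. The call rate was 62.5%. The CD8 and DN comparisons are not independent, since the 584 in-frame clonotypes shared by these libraries entered both. With at least 2 reads, the DN difference was 1.98 percentage points with an adjusted p of 0.173. Neighbours of TRBV31 were TRBV13-1 and TRBV13-2 in CD4, TRBV30 and TRBV19 in CD8, and TRBV14 and TRBV13-3 in DN T cells. The ends were TRBV17 (23.99%) and TRBV2 (4.16%) in CD4, TRBV13-1 (22.6%) and TRBV14 (5.42%) in CD8, and TRBV20 (27.3%) and TRBV29 (18.6%) in DN T cells.

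DN T cells shared more TRBV31 clonotypes with CD8 than with CD4 T cells, but the CD8 library also held more of them. Of the in-frame DN TRBV31 clonotypes, 584 (21.8%) were found in CD8 and 265 (9.91%) in CD4 T cells, and the clonotypes found in CD8 held 74.0% of the in-frame TRBV31 reads of DN T cells. The CD8 library held 81212 clonotypes and the CD4 library 44807, and a larger library offers more matches. For the other V genes the shares were 19.4% with CD8 and 9.35% with CD4 T cells. Their clonotypes found in CD8 held 67.3% of their in-frame DN reads, beside the 74.0% of TRBV31.

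The largest DN clonotypes recurred in the CD8 library and, at lower shares, mostly in the CD4 library too. Clonotype 1 had 1269 reads in DN, 152 in CD8 and 46 in CD4 T cells and was the 4th largest clonotype of the DN library. Clonotype 2 had 520, 59 and 11 reads, and clonotype 3 had 495, 148 and 24. Clonotype 4 had 242, 44 and 7 reads, and clonotype 5 had 205, 44 and 2. All of the 25 TRBV31 clonotypes with at least 100 reads in DN T cells were found in CD8 T cells, at 7.64 to 38.5% of their DN share of reads (median 17.5%), and 23 were found in CD4 T cells, at up to 9.004% (median 4.204%). The 4 nonproductive ones among them were found in both, with 11.01 to 17.8% in CD8 and 4.97 to 6.68% in CD4 T cells. Other V genes had 190 clonotypes with at least 100 DN reads, which were not looked up. This recurrence can therefore not be called particular to TRBV31. Clonotype 12 had 261 reads in DN, 36 in CD8 and 12 in CD4 T cells, and clonotype 13 had 186, 23 and 8.

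The reverse did not hold for the largest CD4 clonotypes. Clonotype 6 had 253 reads for CD4, 0 for CD8 and 1 for DN T cells, and clonotype 7 had 203, 0 and 1. Nonproductive clonotype 8 had 193 reads for CD4, 6 for CD8 and 0 for DN T cells, and clonotype 11 had 181, 2 and 3. Of the 8 TRBV31 clonotypes with at least 100 reads in CD4 T cells, 4 were found in CD8 and 6 in DN T cells, at no more than 2.75% and 1.55% of their CD4 share. In CD8 T cells the largest clonotypes were of both kinds. Clonotypes 1 and 3 were larger in DN than in CD8 T cells, whereas clonotype 9 had 167 reads in CD8, 9 in DN and 3 in CD4 T cells and clonotype 10 had 149, 13 and 1. Clones present in several subsets, cells sorted into another subset and reads exchanged between libraries cannot be told apart in these files, and the origin of the shared clonotypes was not tested.

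**Figure D5:**
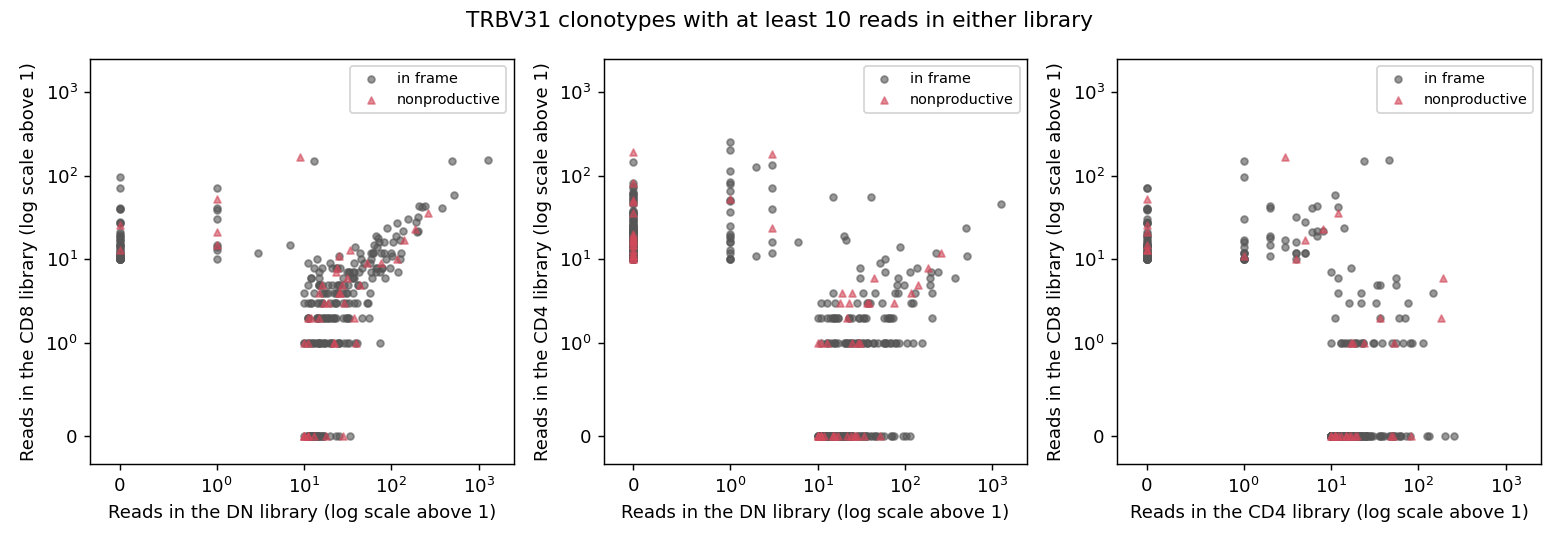
Reads of each TRBV31 clonotype in 1 library against its reads in another, for clonotypes with at least 10 reads in either of the 2 libraries (both axes logarithmic above 1 read and linear from 0 to 1). Circles are in-frame and triangles nonproductive clonotypes. The 25 clonotypes with at least 100 DN reads all had CD8 reads, from 7 to 152, while those with the most CD4 reads had at most 6 in CD8 T cells.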

How the data were processed

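The libraries were made with the Takara SMARTer Mouse TCRα/β kit. The authors aligned the reads, assembled clonotypes and exported 1 table per library with MiXCR. Its version, settings and genome build are not given in the sources used here. For every clonotype the authors deposited a raw read count and the fraction of the table's reads it made up. This fraction was checked to be count over table total and was not used further. All clonotypes with TRBV and TRBJ best matches were kept, without a filter on reads. Only the best V, D and J gene was listed, so a second match was unknown.

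The V part was extended while the most common next base had at least 60% of the in-frame sequences matching so far, and the J parts with 65%, over the 3 libraries together. Gene order and names came from the RefSeq list of GRCm38.p6. Since the files name no build, no coordinates are given. Clonotypes named were the 3 TRBV31 clonotypes with most reads per library, those among the 100 largest of more than 1 library, and 3 nonproductive ones chosen after their counts were seen. V genes named were the neighbours of TRBV31 and the ends of each order, and the 3 nearest in library profile. The members, measures and lists were chosen with earlier results of these data known. The tests and steps were tested on simulated data. Alternatives were a minimum of 2 reads, merging of clonotypes 1 mismatch from one with 10 times their reads (same V gene, J gene and length), clonotypes found in no other library, in-frame or all clonotypes, reads in place of clonotypes, equal depth (expected numbers at 133667 reads) and removal of the 10 largest clonotypes. P-values below 1e-300 were set to 1e-300. Scripts ran in Python 3.11.15 with pandas 2.3.3 for tables, SciPy 1.17.1 for tests, matplotlib 3.10.9 for plots and NumPy 2.4.6.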

Additional observations from a re-analysis of the deposited data

Results flagged for a closer look

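The sharing of in-frame TRBV31 clonotypes differed in direction between libraries. Against the other V genes, TRBV31 was found in another library less often in CD8 T cells (-3.22 percentage points) and more often in DN T cells (2.42), both called within their library by Fisher's exact test. Among clonotypes with at least 2 reads, the DN difference was 1.98 with an adjusted p of 0.173 and was not called. The difference between the libraries itself was not tested.

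TRBD2 was listed for 7.19% (CD4), 5.997% (CD8) and 8.03% (DN) of in-frame TRBV31-TRBJ1 clonotypes, although TRBD2 lies after the TRBJ1 genes. These clonotypes were kept in the TRBJ1, CDR3 length and sharing comparisons.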

How the results depend on the processing

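Of 323 alternative values, 236 kept their direction and call, stayed within the interval of the reported value or, for sharing counts and the ratio of reads per nonproductive to in-frame clonotype, stayed within 1.5 times of it. The in-frame and TRBD2 differences kept direction and call under every alternative run. At least 2 reads per clonotype gave TRBV31 shares of clonotypes of 9.60% in CD4 and 12.5% in CD8 T cells, and ratios of 0.635 (DN over CD8) and 0.823 (DN over CD4). Clonotypes found in no other library gave 11.9% in CD8 T cells and ratios of 0.636 (DN over CD8) and 0.745 (CD4 over CD8). In-frame clonotypes gave 8.15%, 11.1% and 6.9996% in CD4, CD8 and DN T cells, with ratios of 0.630 (DN over CD8) and 0.733 (CD4 over CD8). At equal depth, all of these clonotype shares and ratios stayed within the intervals of the reported values. Shares of reads were 9.90%, 11.7% and 9.61% at 2 reads or more, 8.58%, 10.9% and 8.51% in frame (DN over CD8 0.779, CD4 over CD8 0.786), and 10.0488%, 12.02% and 9.21% without the 10 largest clonotypes (DN over CD8 0.766, DN over CD4 0.916). In clonotypes found in no other library they were 12.5% in CD8 and 7.74% in DN T cells, with ratios of 0.620 (DN over CD8), 0.804 (DN over CD4) and 0.771 (CD4 over CD8). Those DN reads are fewer by construction, since the largest DN clonotypes are shared.

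At 2 reads or more, the differences were 0.70 percentage points for short CDR3s in CD8, -0.037 for long CDR3s in CD4 and 1.98 for sharing in DN T cells, none of them called. The TRBJ1 difference in CD4 T cells was -1.80 with near-identical clonotypes merged and -1.89 in clonotypes found in no other library, both not called, and that in DN T cells was 1.76 and called over all reading frames. The difference for no named D gene was -1.69 and called in CD4 T cells with merging. Counting reads, which are not independent molecules and make p-values too small, it was -1.30 and called in CD8 T cells, where it changed sign, and -10.0 in DN T cells, and the sharing difference in CD4 T cells turned to -0.96. The CDR3 length difference was -0.19 in CD4 and -0.22 in CD8 T cells at 2 reads or more, and -0.22 in CD8 and -0.19 in DN T cells by reads. The 10 largest in-frame clonotypes held 24.96% of in-frame TRBV31 reads in DN T cells. At 2 reads or more in each library, TRBV31 clonotypes shared were 294 by DN and CD8, 130 by DN and CD4, 125 by CD4 and CD8, and 74 by all 3. Causes were not tested. No paired analysis was possible because each subset had 1 library. Depth limits the values of single clonotypes, since over 50% of the TRBV31 clonotypes of each library had 1 read.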
